A study of Mus musculus with 2 samples.

Results

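The Polycomb repressive complex genes described here are *Ezh1*, *Ezh2*, *Eed*, *Suz12*, *Jarid2*, *Mtf2*, *Rnf2*, *Bmi1*, *Cbx7* and *Phc1*. They were matched by Entrez gene number, and found under these symbols, among the 30774 gene identifiers of an Illumina mouse beadchip, on which gene-specific beads report RNA abundance as a brightness, the signal intensity. All 10 were found, and *Jarid2* has a second identifier under an older name. The measured cells were B6 mouse embryonic stem cells (mESCs), labelled as inner cell mass of E3.5 embryos. Both groups grew in medium with serum and LIF, a cytokine that acts through Stat3. One group received LIF alone. The other was also given CHIR99021 (CHIR) for 12 h, which blocks the kinase GSK3 and so stabilizes β-catenin, the effector of Wnt signaling. With 1 array in each condition, no difference below was checked in a replicate, and none has a p-value. The concentration of CHIR used for the arrays and the number of cultures behind each array are not given in the sources used here.

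Polycomb proteins silence developmental genes through chromatin. Polycomb repressive complex 2 (PRC2) places methyl groups on lysine 27 of histone H3. Its catalytic subunit is EZH2 or EZH1, which works with EED and SUZ12, while JARID2 and the Polycomb-like proteins steer the complex to CpG-rich DNA. Polycomb repressive complex 1 (PRC1) attaches ubiquitin to histone H2A through RNF2 (RING1B) or RING1. In its canonical form it also holds a PCGF protein such as BMI1, a CBX protein such as CBX7 that reads the PRC2 mark, and a PHC protein such as PHC1. In mESCs these complexes sit on the promoters of lineage regulators that are silent in the undifferentiated state.

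The data show little difference in these genes between the arrays. Of the 10 members, 6 were detected above the negative control beads (detection p-value under 0.01) on 1 array or both: *Eed*, *Suz12*, *Mtf2*, *Bmi1*, *Cbx7* and *Phc1*. None of the 6 reached a 1.5-fold difference in either direction. Over all 9615 detected identifiers, 4.11% were past this limit upwards and 4.02% downwards, so that a count of 0 among 6 does not set the members apart. Of the 8580 identifiers detected on both arrays, as 5 of the members were, the shares were 2.37% and 2.65%. The largest difference among members detected on both arrays was that of *Phc1*, with 1.36-fold less signal in LIF plus CHIR. A PRC2 partner outside the 10 differed more: *Phf19*, a paralogue of *Mtf2*, had 3.38-fold less signal with CHIR.

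The promoters of *Phc1*, *Mtf2* and *Phf19* are shown because these genes carry the contrast: the member that differed most among those detected on both arrays, a member that differed little, and the paralogue of the latter that differed more than any other Polycomb gene detected on both arrays. Each window runs from 250 bases before to 50 bases after the annotated start (RefSeq, GRCm38.p6). Capitals mark GGGCGG (the GC box that Sp and Klf factors bind), CTTTG (the core of sites bound by Tcf factors) and TTCNNNGAA (the form of Stat sites), each searched on both strands. Joined capitals in *Phf19* are overlapping GC boxes.
Phc1 promoter, chr6:122340178-122340477, minus strand: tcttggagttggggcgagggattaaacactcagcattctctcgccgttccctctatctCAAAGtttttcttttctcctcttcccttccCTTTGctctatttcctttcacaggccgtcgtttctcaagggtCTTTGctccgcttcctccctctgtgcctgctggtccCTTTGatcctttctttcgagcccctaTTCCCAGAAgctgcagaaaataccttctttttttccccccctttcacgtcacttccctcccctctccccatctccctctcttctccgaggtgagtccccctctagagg
Mtf2 promoter, chr5:108065424-108065723, plus strand: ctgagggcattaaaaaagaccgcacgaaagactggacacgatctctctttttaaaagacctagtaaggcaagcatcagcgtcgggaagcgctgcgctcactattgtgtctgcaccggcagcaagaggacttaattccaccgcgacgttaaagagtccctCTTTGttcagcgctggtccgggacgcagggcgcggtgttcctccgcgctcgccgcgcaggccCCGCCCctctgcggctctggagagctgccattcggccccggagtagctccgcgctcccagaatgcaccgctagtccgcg
Phf19 promoter, chr2:34913927-34914226, minus strand: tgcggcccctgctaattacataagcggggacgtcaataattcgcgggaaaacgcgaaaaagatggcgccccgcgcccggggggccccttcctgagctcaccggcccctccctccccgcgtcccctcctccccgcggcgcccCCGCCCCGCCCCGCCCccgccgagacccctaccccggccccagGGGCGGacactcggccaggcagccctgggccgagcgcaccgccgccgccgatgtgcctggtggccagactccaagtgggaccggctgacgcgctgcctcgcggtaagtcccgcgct
The *Phc1* window holds 4 CTTTG cores, the first at 192 bases and the last ending at 80 bases before the start. At least as many were found in 1.40% of all 32851 promoter windows of this length. It also holds 1 TTCNNNGAA match, as did 8.30% of all windows, and no GC box. The *Mtf2* window holds 1 CTTTG core and 1 GC box, and the *Phf19* window 4 GC boxes and no CTTTG core. At least 1 CTTTG core was present in 53.9% of all windows and at least 1 GC box in 35.7%. These are matches of letters, and no binding was measured here.

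The members' promoters were mostly rich in CpG. The 10 genes have 12 windows, since *Jarid2* and *Mtf2* have a pair each, with a median of 23.5 CpG against 7 over all windows. *Suz12* had the most, with 41 CpG. The lowest counts were 2 in the second window of *Mtf2*, 9 in *Phc1* and 17 in *Eed*. Of the 12 windows, 7 held a GC box and 5 a CTTTG core, which is 58.3% and 41.7% beside the 35.7% and 53.9% over all windows.

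The cells carried the markers of mESCs on both arrays. *Pou5f1* had a signal of 12347 in LIF and 11309 with CHIR, and *Nanog* had 1660 and 2429. *Fgf4*, a growth factor of mESCs, had 712.7 and 430.1, and was the only marker in the mESC list to pass 1.5-fold. *Utf1*, a chromatin protein gene of mESCs, had 5585 and 3972. Other markers of the list were higher with CHIR, among them *Klf4* (965.7 and 1444) and *Esrrb* (10986 and 14053). Of the detected mESC markers, 4 had a log2 fold change above 0 and 4 below. Of 10 mESC markers 8 were detected on both arrays, the others being *Sox2* and *Tdgf1*. *Sox2*, treated as measured by several probes, was not dim, with 441.2 and 400.2 at detection p-values of 0.0503 and 0.276. *Tdgf1* had 26.6 and 14.6. Of the 7 fibroblast markers none was detected by its detection p-value, but *Thy1*, treated as measured by several probes, had signals of 222.3 and 225.3 at p-values of 0.354 and 0.302. Other lineages showed *Sox7* (1 of 6 primitive endoderm markers), *Nes* (1 of 4 neural) and *Cdx2* (1 of 4 trophoblast), with signals of at most 93.5. *Axin2*, a standard Wnt target gene, had 314.1 on the LIF array and 1178 on the other, the direction that the labels give. The distributions were nearly equal on both arrays, with median signals of 10.5 in LIF and 10.4 with CHIR.

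**Figure D1:**
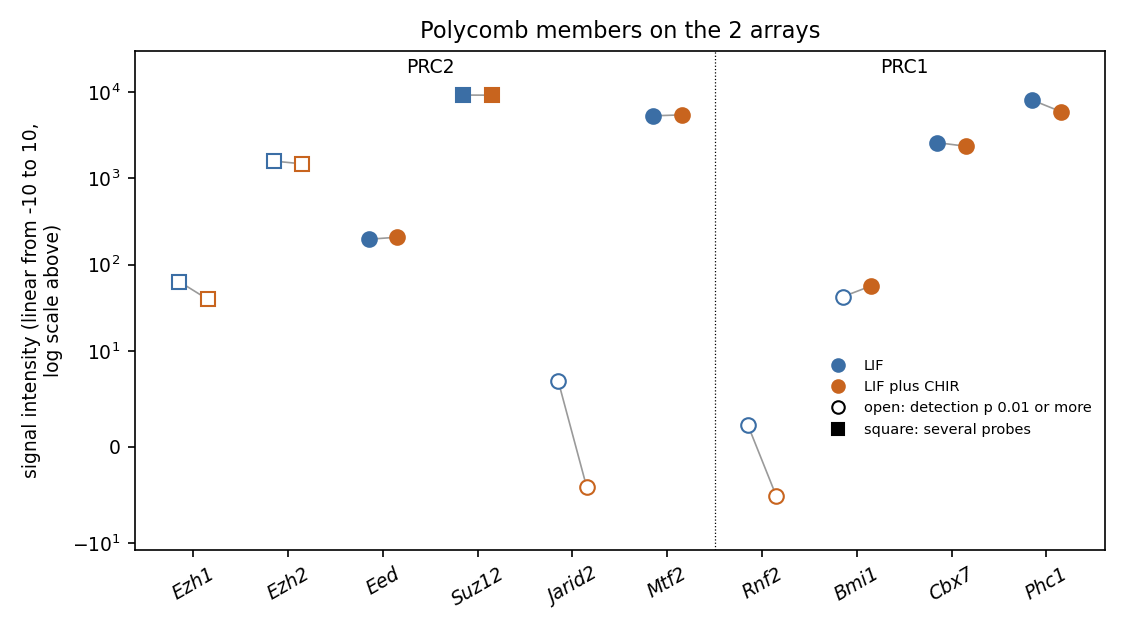
Signal intensity (vertical axis, linear from -10 to 10 and on a log scale above) of the 10 members on the LIF array (blue) and the LIF plus CHIR array (orange), 1 array each. Filled symbols were detected at a detection p-value under 0.01, and squares are identifiers treated as measured by several probes; *Jarid2* and *Rnf2* lie near 0 on both arrays, and signals of different genes come from different probes and are not ranked against each other.

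Among the catalytic subunits of PRC2, neither gene was detected by its detection p-value. *Ezh2* (Entrez gene 14056, chromosome 6, band 6qB2.3), the main methyltransferase of dividing cells, had a signal of 1582 in LIF and 1468 in LIF plus CHIR. The ratio of these signals is 1.08, lower with CHIR. Its detection p-values were 0.169 and 0.166, which are high for signals of this size. *Ezh2* was treated as measured by several probes, because its p-values are not multiples of 1 over the 936 negative controls. Identifiers of this kind often combine a bright signal with a high p-value. Of 604 such identifiers with a signal of at least 1000 in LIF, 291 had a p-value of 0.01 or more. Of identifiers treated as measured by 1 probe, 0 of 2837 did. The split uses the same p-values, and identifiers with p-values of 0 on both arrays count as 1 probe. The contrast between the kinds is therefore partly set by the split. For *Ezh2*, a detection p-value over the limit still does not show a dim signal. *Ezh1* (Entrez gene 14055, band 11qD), the paralogue typical of resting cells, had 63.6 in LIF and 39.7 with CHIR, at detection p-values of 0.0163 and 0.0432. At a detection limit of 0.05 it enters as 1.60-fold lower with CHIR, and it is then the only member past 1.5-fold. The dimmest identifier with 1 probe that passed detection had 51.9 in LIF and 47.1 in LIF plus CHIR, the 1-probe minimum. With signals raised to it where they were lower, and detection read from the signal, a setting chosen after seeing the values, the difference was 1.35-fold.

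**Figure D2:**
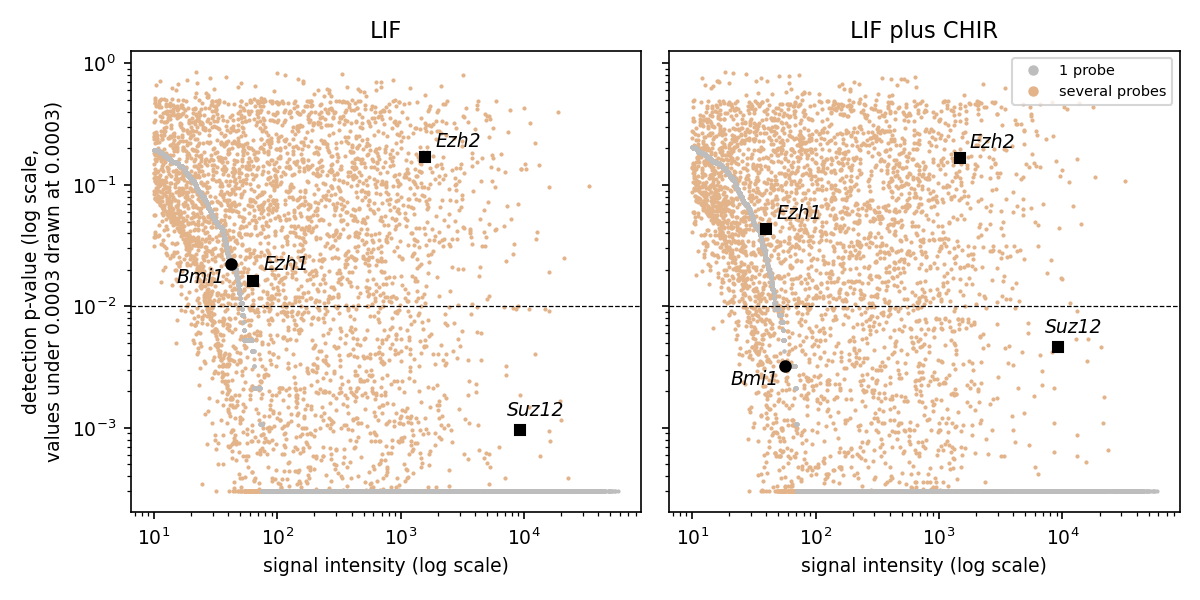
Detection p-value (vertical log axis, values under 0.0003 drawn at 0.0003) against signal intensity (horizontal log axis, signals over 10) for identifiers treated as measured by 1 probe (grey) or several probes (tan), on the LIF array (left) and the LIF plus CHIR array (right). The dashed line is the limit of 0.01; grey points follow a single curve, whereas *Ezh2* lies with tan points far above it, at signals of 1582 and 1468.

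The scaffold subunits of PRC2 hardly differed. *Eed* (Entrez gene 13626, chromosome 7, band 7qE1), whose product binds the methylated histone and activates the enzyme, had a signal of 196.6 in LIF and 207.5 in LIF plus CHIR. This is a log2 fold change of 0.08. *Suz12* (Entrez gene 52615, chromosome 11, band 11qB5), whose product holds the complex together, had 9201 and 9173. Its log2 fold change was -0.0044, with detection p-values of 0.000959 and 0.00462 that were combined over several probes. As a measure of how far the arrays lie apart at a given brightness, the middle 95% of the log2 fold changes of the 500 detected identifiers nearest in mean signal was taken. It ran from -0.63 to 0.68 around *Eed* and from -0.28 to 0.35 around *Suz12*, and both genes lay well inside it. The range includes genes that respond to CHIR and is not an error from replicates.

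Of the proteins that guide PRC2, *Mtf2* was detected and *Jarid2* was not. *Mtf2* (Entrez gene 17765, chromosome 5, band 5qF), also called Pcl2, is a Polycomb-like protein that binds unmethylated CpG DNA. It gave 5290 in LIF and 5422 in LIF plus CHIR, a log2 fold change of 0.04. *Jarid2* (Entrez gene 16468, chromosome 13, band 13qA5), a DNA-binding partner of PRC2, had 6.84 in LIF and -4.21 in LIF plus CHIR. Of the 936 negative controls, 219 and 456 were at least as bright. A second identifier, jmj, carries an older name of *Jarid2* and was also not detected, with 38.7 in LIF and 26.5 with CHIR at detection p-values of 0.0310 and 0.0705. No fold change is given for *Jarid2*, since neither identifier passed the detection limit of 0.01 on either array, and the dim signal of these probes does not show that the RNA is absent.

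*Phf19* (Entrez gene 74016, chromosome 2, band 2qB) encodes Pcl3, another Polycomb-like partner of PRC2, and was named from the list of other PRC2 subunits. The signal was 468.5 in LIF but 138.5 with CHIR, above all 936 negative controls on both arrays. The log2 fold change was -1.76, outside the middle 95% of identifiers of like signal (-0.64 to 0.73). Among 8580 identifiers detected on both arrays, 8 had a lower log2 fold change. Under the alternatives of normalization and background it stayed between -1.77 and -1.66, and those of detection left it unchanged. *Phf1*, the third paralogue (Pcl1), had signals of -11.1 and -10.2 and was not detected. Within this family *Phf19* and *Mtf2* thus gave log2 fold changes of -1.76 and 0.04, with 1 array per condition. Both were treated as measured by 1 probe, but their detection p-values of 0 cannot show the number of probes. A difference between the cultures and an effect of CHIR cannot be told apart with this design.

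**Figure D3:**
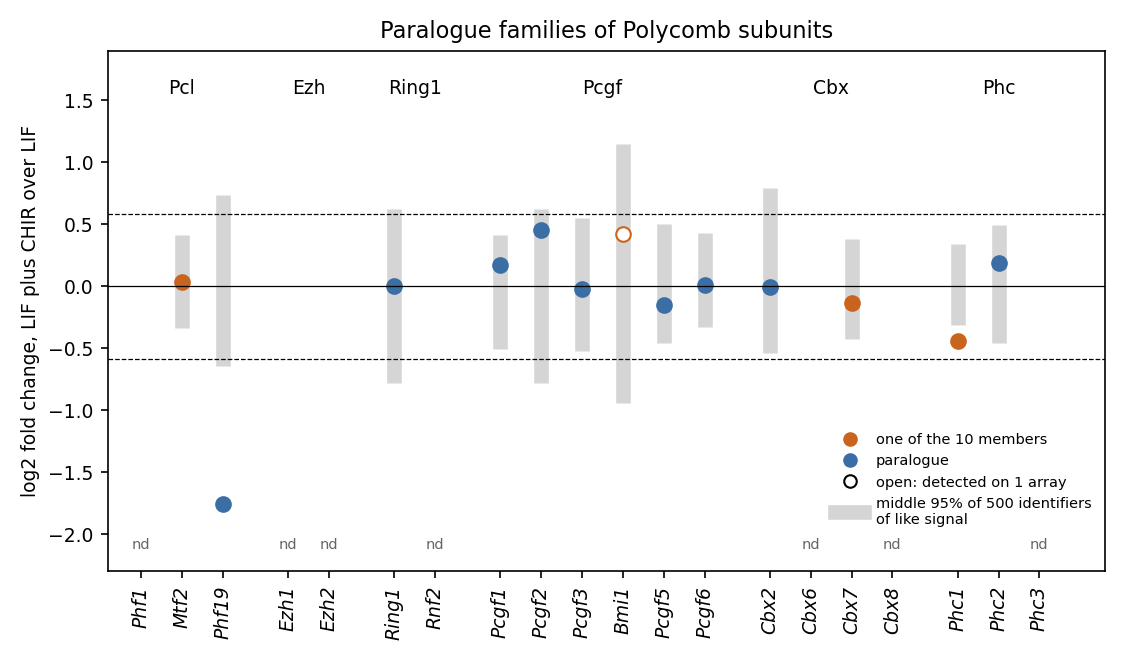
Log2 fold change, LIF plus CHIR over LIF (vertical axis), of the members (orange) and their paralogues (blue) in the Polycomb-like (Pcl), Ezh, Ring1, Pcgf, Cbx and Phc families; the open symbol (*Bmi1*) was detected on 1 array, and nd marks genes not detected on either array at a detection p-value under 0.01. Grey bars are the middle 95% of 500 identifiers of like signal and dashed lines the 1.5-fold limits; *Phf19* at -1.76 and *Phc1* at -0.44 lie outside their bars.

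Of the 11 other PRC2 subunits and partners 7 were detected, with *Phf19* alone past 1.5-fold and a median log2 fold change of -0.11. *Rbbp7*, which encodes a histone-binding subunit, had the highest value, with signals of 4163 in LIF and 5305 with CHIR, a log2 fold change of 0.35. *Lcor*, detected in LIF only, had 38.1 and 27.1. *Epop* (identifier E130012A19Rik), a PRC2 partner of mESCs, had 16600.0 and 18446, a log2 fold change of 0.15. The median over all detected identifiers was 0.00089.

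The catalytic subunit of PRC1, *Rnf2* (Entrez gene 19821, chromosome 1, band 1qG2), was not detected. Its signals were 2.28 in LIF and -5.13 in LIF plus CHIR. Of the 936 negative controls, 288 and 494 were at least as bright. As for *Jarid2*, this gives no level of the RNA and no fold change. Its paralogue *Ring1* had 241.40 and 241.42, a log2 fold change of 7.3e-05.

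*Bmi1* (Entrez gene 12151, chromosome 2, band 2qA3) encodes the PCGF4 protein that partners with RNF2 or RING1. It was detected with CHIR only, at a signal of 56.6 against 42.4 in LIF. Of the negative controls, 3 were at least as bright with CHIR and 21 in LIF. The ratio of the signals gives a log2 fold change of 0.42. With its LIF signal raised to the 1-probe minimum of 51.9, *Bmi1* was 1.09-fold higher with CHIR, which is no bound on the true difference. At this brightness differences of such size were common: where the brighter signal was under 100, 10.4% of identifiers passed 1.5-fold upwards and 10.3% downwards. Its paralogue *Pcgf2* (Mel18) was detected on both arrays, with 208.1 in LIF and 285.3 with CHIR. The log2 fold change of 0.46 lay inside the range of like identifiers (-0.78 to 0.62).

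The CBX subunits connect PRC1 to the mark placed by PRC2, and CBX7 is the main one in mESCs. *Cbx7* (Entrez gene 52609, chromosome 15, band 15qE1) had a signal of 2584 in LIF and 2349 in LIF plus CHIR. The log2 fold change of -0.14 lay inside the range of like identifiers (-0.43 to 0.38). *Cbx2*, a paralogue that gains weight in differentiating cells, had 290.7 and 289.5. *Cbx8* (6.80 and 12.1) was not detected, and *Cbx6*, with several probes, had 205.9 and 213.4 at detection p-values of 0.186 and 0.228.

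*Phc1* (Entrez gene 13619, chromosome 6, band 6qF1) encodes a polyhomeotic protein through which PRC1 complexes cluster. The LIF array gave 8051 and the LIF plus CHIR array 5924, with all 936 negative controls dimmer on both arrays. The log2 fold change was -0.44. It was the only one of the 6 detected members outside the middle 95% of like identifiers, which ran from -0.31 to 0.34. Such a range leaves out some identifiers at any brightness by construction, so that lying outside it is no test. Of the 8580 identifiers detected on both arrays, 437 had a lower value, and 9.62% a larger difference in either direction. Where the brighter signal was at least 1000, 1.19% of 3269 identifiers passed 1.5-fold upwards and 1.01% downwards, a limit that *Phc1* did not reach. *Phc2* had 1234 in LIF and 1407 in LIF plus CHIR, a log2 fold change of 0.19, and *Phc3* was not detected (-3.09 and -19.4).

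**Figure D4:**
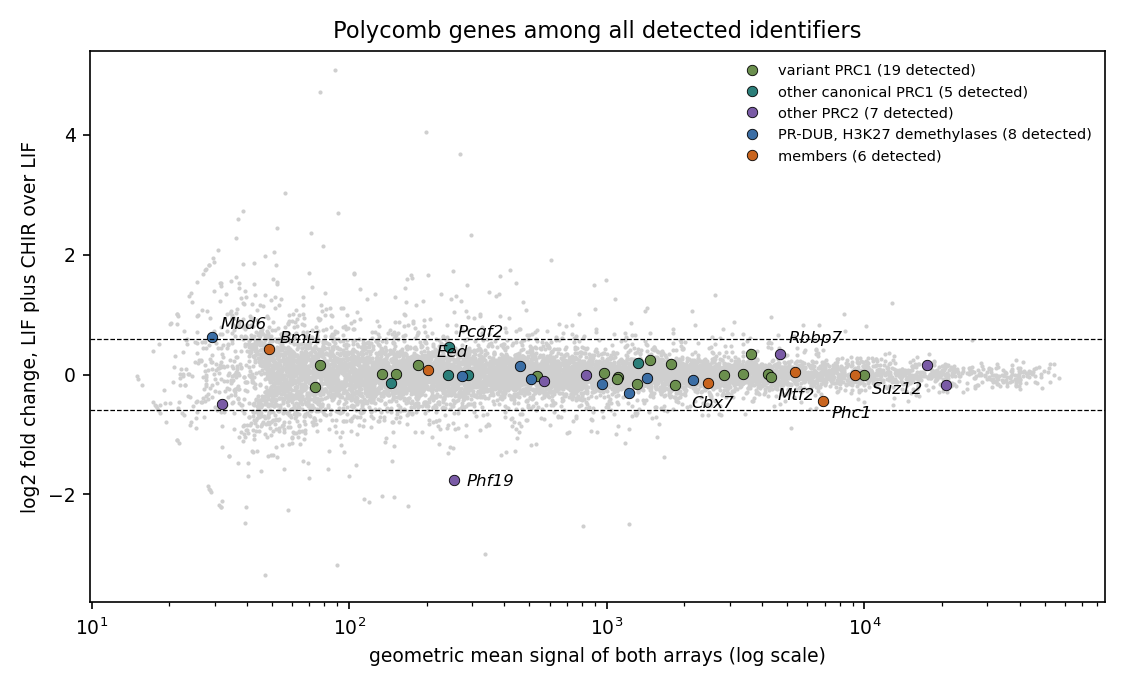
Log2 fold change, LIF plus CHIR over LIF (vertical axis), against the geometric mean signal of both arrays (horizontal log axis) for all 9615 detected identifiers (light grey) and the detected Polycomb genes by list, with the number detected in the legend; dashed lines are the 1.5-fold limits. Most Polycomb genes lie in the dense band around 0, *Phf19* lies far below it and *Phc1* at its lower edge.

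The detected genes among the other subunits of canonical PRC1 and of variant PRC1, which holds RYBP or YAF2 in place of a CBX protein, were all within 1.5-fold. Of 11 other canonical subunits 5 were detected, with a median log2 fold change of 7.3e-05 and a range of -0.14 (*Scmh1*, detected in LIF only) to 0.46 (*Pcgf2*). Of 28 variant PRC1 genes 25 were found on the array and 19 detected, all 19 on both arrays. Their median log2 fold change was 0.0088. The lowest was *Auts2* at -0.20 (78.6 in LIF, 68.4 in LIF plus CHIR) and the highest *Csnk2a2* at 0.34 (3217 and 4068). The genes of the PCGF proteins that define these complexes had log2 fold changes of 0.17 for *Pcgf1*, -0.02 for *Pcgf3*, -0.15 for *Pcgf5* and 0.0088 for *Pcgf6*. *Kdm2b* (identifier Fbxl10), which brings the PCGF1 complex to CpG islands, had 1115 and 1086.

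Enzymes that oppose Polycomb were examined next: the PR-DUB complex, which removes ubiquitin from histone H2A, and the demethylases of H3 lysine 27. Of 13 genes 8 were detected, 1 higher and none lower, with a median log2 fold change of -0.07. The higher one was *Mbd6*, treated as measured by several probes, with 23.6 in LIF and 36.3 with CHIR, where alone it was detected. It fell under the limit once signals were raised to the 1-probe minimum. *Bap1*, the deubiquitinase, had 2227 and 2099. Of the demethylases, *Kdm6a* (identifier Utx) had 1352 and 1095 and was detected with CHIR only, by a combined p-value, and *Kdm6b* (identifier Jmjd3) had 275.9 and 270.7. A second identifier of *Kdm6b*, 1700064E03Rik, had 5.62 and 0.528 and was not detected. Among the genes detected on both arrays, *Asxl1* was lowest at -0.15 and *Ogt* highest at 0.14.

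Counted together, 45 of the 70 Polycomb and opposing genes found on the array were detected. *Mbd6* alone passed 1.5-fold upwards and *Phf19* alone downwards, 2.22% each, beside 4.11% and 4.02% over all detected identifiers. Most of the 45 were detected on both arrays, and over all identifiers of that kind the shares were 2.37% and 2.65%, close to 2.22%. The median log2 fold change of the 45 was -0.0044. The genes not detected include bright identifiers treated as measured by several probes, such as *Ezh2* and *Cbx3* (2746 in LIF and 2467 with CHIR). The count of detected genes therefore does not show that the others were silent.

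Developmental regulators that Polycomb occupies in mESCs were mostly dark on both arrays. Of 39 such genes 38 were on the array and 31 were not detected, including the *Hoxa*, *Hoxb* and *Hoxc* and all *Pax* genes of the list. Of the 7 detected, 4 passed 1.5-fold upwards with CHIR and 1 downwards, and none of the 5 was detected on both arrays. Over all detected identifiers the shares were 4.11% and 4.02%, and 10.4% and 10.3% where the brighter signal was under 100, as it was for 4 of these 5. Both pairs of shares include identifiers detected on both arrays, of which 2.37% and 2.65% passed at any brightness. Of all 9615 detected identifiers 395 passed upwards and 387 downwards, against 203 and 227 of the 8580 detected on both arrays. The remaining 1035 entered through 1 array, like these 5, and passed more often than any of these shares. Set beside the shares, the counts of 4 and 1 therefore stand out too far. *T*, a mesoderm regulator and known Wnt target, had a signal of 8.05 in LIF and 394.5 in LIF plus CHIR. With the LIF signal raised to the 1-probe minimum, it was 7.60-fold higher. *Cdx2*, a caudal homeobox gene, had 23.6 and 93.5, and was 1.80-fold higher on the same basis. *Gsc* (12.5 and 63.7), *Isl1* (34.0 and 51.8) and *Nkx2-9* (65.8 and 38.3) were within 1.5-fold on that basis. *T*, *Gsc* and *Cdx2* were known to be high with CHIR in these data when the list was written, so their count is a description. *Hoxd11*, a posterior Hox gene detected with CHIR only, had 37.3 and 50.8. *Olig1*, the 1 gene detected on both arrays, had 1760 in LIF and 1704 with CHIR.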

How the data were processed

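RNA of mESCs was measured on 1 array for LIF and 1 for LIF plus CHIR, and samples were grouped by their titles. The authors deposited signal intensities on a linear scale, 1 per gene identifier and array, background-subtracted and with nearly equal distributions; the method is not given in the sources used here. They also deposited detection p-values against the negative control beads. Where a p-value was no multiple of 1 over 936 (tolerance 0.001 of a control), the identifier was treated as measured by several probes (7510 of 30774). All others were treated as measured by 1 probe. They include identifiers with p-values of 0 on both arrays, whose number of probes cannot be told from these values. The shorter deposited table holds 11702 identifiers with identical values, among them 7 of the 10 members.

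Log2 fold changes were computed from the deposited signals in Python 3.11.15 (numpy 2.4.6, pandas 2.3.3) for identifiers that passed a detection p-value of 0.01 on either array. Signals below the lowest detected signal (15.1 in LIF, 14.8 in LIF plus CHIR) were raised to it. Plots used matplotlib 3.10.9, and limma 3.58.1 in R 4.3.3 gave normexp and quantile values. The calculation of fold changes was tested on simulated data in which every identifier was detected on both arrays. The detection limit and the raising of low signals were therefore not tested. Of 73 genes in the 5 Polycomb lists, 60 were matched by Entrez gene number, 7 by symbol and 3 by synonym, through the RefSeq table of GRCm38.p6; its promoter table held all 10 members. The members, the lists and the rule for named genes (all members, every paralogue, genes past 1.5-fold or detected on 1 array only, and the highest and lowest of each list) were chosen with earlier results of these data known. *Epop*, *Kdm2b*, *Bap1*, *Kdm6b*, *Cbx3*, *Olig1*, *Fgf4*, *Utf1*, *Klf4*, *Esrrb*, *Sox2*, *Tdgf1* and *Thy1* were named after their values were seen. The values of 1 listed gene are not reported here. The planned comparison of protein sequences was not run, as no protein table was used here. The number of arrays limits the precision.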

Additional observations from a re-analysis of the deposited data

How the results depend on the processing

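No paired analysis was possible because LIF and LIF plus CHIR were measured on a single array apiece. Detection by signal was chosen after seeing the data; the other alternatives were listed beforehand. The log2 fold changes of *Eed*, *Suz12*, *Mtf2*, *Cbx7* and *Phc1* kept their sign and moved by less than the spread of like identifiers under every alternative run, with *Phc1* between -0.45 and -0.44. Only the alternatives of normalization and background could move them. Those of detection, minimum signal and the shorter table leave such signals as they are, and none stands in for a replicate. *Bmi1* ranged from 0.12 (1-probe minimum signal and detection by signal) to 0.43, and has no value with detection on both arrays. The members stayed at 0 higher and 0 lower except at a detection p-value under 0.05, where 1 (*Ezh1*) was lower. *Phf19* stayed between -1.77 and -1.66, and likewise changed with normalization and background only.

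The higher PR-DUB or demethylase gene (1) fell to 0 with the 1-probe minimum signal, the 2-fold limit, detection on both arrays, normexp correction and detection by signal. The developmental genes (4 higher, 1 lower, median 0.61) gave 2 higher, 0 lower and a median of -0.0042 with the 1-probe minimum signal and with detection by signal, 0 higher, 0 lower and a median of -0.047 with detection on both arrays, 3 lower at a detection p-value under 0.05, and 0 lower at the 2-fold limit. Their median rests on genes near background. Over all identifiers, 395 were higher and 387 lower. These counts became 247 and 273 with the 1-probe minimum signal, 274 and 258 with normexp correction, and 275 and 311 with detection by signal. They were 682 and 684 with the detection limit at 0.05, 203 and 227 with detection on both arrays, and 129 and 85 at 2-fold. Signals under 100 limit *Ezh1*, *Bmi1*, *Jarid2* and *Rnf2* most, and 20.7% of identifiers with a brighter signal under 100 passed 1.5-fold. The slide as a block was not run, since no slide is given in the sources used here.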
